A study of Drosophila melanogaster with 3 samples.

Results

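The sites described here are ChIP-seq peaks of the GFP-tagged product of CG4318 that lay at divergent gene-pair promoters in whole Drosophila melanogaster prepupae. They were chosen by position. A peak was a member when its summit lay no more than 500 bp from a protein-coding transcription start site (TSS) and an opposite-strand TSS of another protein-coding gene lay upstream of that nearest TSS, at most 1000 bp away. Of 5056 reproducible peaks, 1204 had a summit within 500 bp of a TSS, and 310 of those met the rule. They belonged to 293 gene pairs and 582 genes. The other 894 promoter peaks are called non-divergent below.

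The 3 samples are 3 biological replicates of 1 group, and there was no second genotype, treatment or time. All came from a transgenic line that stably expressed CG4318 with GFP fused to its C terminus, collected as prepupae of both sexes, and chromatin was precipitated with an antibody against GFP. The promoter that drives the transgene and the state of the native gene are not given in the labels; the control experiment they name was not analysed here. The labels put the age at 48 days, far beyond the life of a prepupa, so the stage alone was used. Whole animals mix all tissues, and a peak list cannot be checked against cell type markers. Each replicate's list held 30000 candidate regions, so ranks are over lists of equal length. The deposited lists hold no read counts, and the depth of each replicate is unknown.

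Genes in a head-to-head arrangement are read outward, on opposite strands, from a shared stretch of DNA. Such pairs are common in the compact fly genome and often include housekeeping genes. The DNA between the start sites holds the promoter elements of both genes and is commonly depleted of nucleosomes. CG4318 is not otherwise described in the sources used here.

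The sequences below show what lay under strong peaks of this kind. The first 6 are the strongest members with a spacing of at most 300 bp, a summit between the TSSs and more than 11 bp from either, and no annotated exon between the start sites, and each runs over all bases between them. The last 2 are shorter stretches around the summits of strong members of that kind with a wider spacing. Some stronger members with a wider spacing are not printed. All are from Release 6 (dm6, RefSeq), plus strand, 5′ to 3′, with the minus-strand gene on the left, and capitals mark the 21 bases centred on the summit.
Tcs5 / CHMP2B, chr3L:5139396-5139618: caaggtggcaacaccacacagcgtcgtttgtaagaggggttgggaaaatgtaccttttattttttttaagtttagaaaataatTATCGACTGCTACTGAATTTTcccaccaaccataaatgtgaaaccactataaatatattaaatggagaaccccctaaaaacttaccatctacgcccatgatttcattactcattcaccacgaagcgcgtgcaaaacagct
Art3 / mRpS10, chr3R:15229409-15229664: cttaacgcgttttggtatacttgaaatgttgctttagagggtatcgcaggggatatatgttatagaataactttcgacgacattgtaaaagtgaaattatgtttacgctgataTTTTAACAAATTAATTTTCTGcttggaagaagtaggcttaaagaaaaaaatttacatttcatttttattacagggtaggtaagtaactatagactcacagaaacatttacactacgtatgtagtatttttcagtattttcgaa
CG10747 / Pyroxd1, chr2L:20091349-20091434: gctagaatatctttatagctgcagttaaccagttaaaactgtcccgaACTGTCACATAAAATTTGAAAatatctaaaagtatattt
CG3437 / CG3552, chr3L:9457670-9457911: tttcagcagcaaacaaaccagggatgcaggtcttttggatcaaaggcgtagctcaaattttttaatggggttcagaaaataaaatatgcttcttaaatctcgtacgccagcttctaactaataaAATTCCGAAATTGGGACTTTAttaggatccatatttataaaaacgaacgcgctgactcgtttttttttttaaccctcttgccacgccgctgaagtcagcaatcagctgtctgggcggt
Atat / Shc, chr3L:9426759-9427009: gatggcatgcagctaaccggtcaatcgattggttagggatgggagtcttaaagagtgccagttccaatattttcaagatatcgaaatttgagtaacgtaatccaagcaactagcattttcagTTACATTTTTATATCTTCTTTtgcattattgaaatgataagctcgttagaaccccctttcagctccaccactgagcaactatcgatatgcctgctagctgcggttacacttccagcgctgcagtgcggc
fws / Lamtor3, chr2L:17481030-17481230: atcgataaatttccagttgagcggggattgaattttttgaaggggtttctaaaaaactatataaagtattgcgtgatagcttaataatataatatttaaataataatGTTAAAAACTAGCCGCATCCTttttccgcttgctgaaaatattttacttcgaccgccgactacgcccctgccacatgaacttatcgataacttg
Ugalt / eIF2Bbeta, chrX:2703853-2703941: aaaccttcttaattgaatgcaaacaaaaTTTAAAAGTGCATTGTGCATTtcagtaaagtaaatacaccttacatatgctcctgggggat
mRpS23 / CenG1A, chr2L:13835401-13835501: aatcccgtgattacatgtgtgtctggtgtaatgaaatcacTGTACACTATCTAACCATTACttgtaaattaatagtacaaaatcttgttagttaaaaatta

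The capitals had a lower GC content than the whole stretch in 6 of these 8 sequences. In Art3 / mRpS10 the GC content was 14.3% in the 21 capital bases and 30.1% over the whole interval. In Atat / Shc it was 14.3% in the capitals and 43.0% over the interval. The exceptions were fws / Lamtor3, with 42.9% in the capitals and 34.3% over the interval, and mRpS23 / CenG1A, with 33.3% and 28.7%. Atat / Shc and fws / Lamtor3 each held a TATCGATA, the DNA replication-related element (DRE) of many housekeeping promoters, and its centre lay 72 bp from the summit in Atat / Shc and 74 bp in fws / Lamtor3.

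The summits of divergent promoter peaks lay mostly between the start sites of the pair. The summit was between the TSSs in 255 of 310 peaks (82.3%, 95% Wilson interval 77.6 to 86.1), whereas 28.3% of the bases that meet the rule lie there. Under the rule, a summit between the TSSs is one upstream of its nearest TSS. Non-divergent promoter peaks had a similar share, with 779 of 894 summits (87.1%, 84.8 to 89.2) at or upstream of the TSS. An upstream summit was thus not particular to divergent pairs. Intervals here and below cover counting error over peaks only. The spacing of the pairs ranged from 16 to 994 bp with a median of 363 bp, and the summit lay 1 to 468 bp from its nearest TSS with a median of 122.5 bp. In 258 peaks (83.2%) both TSSs were within 500 bp of the summit, and in 155 (50%) both were within 250 bp. The summits between the TSSs were shared evenly, 121 nearer the minus-strand gene and 134 nearer the plus-strand gene.

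**Figure D1:**
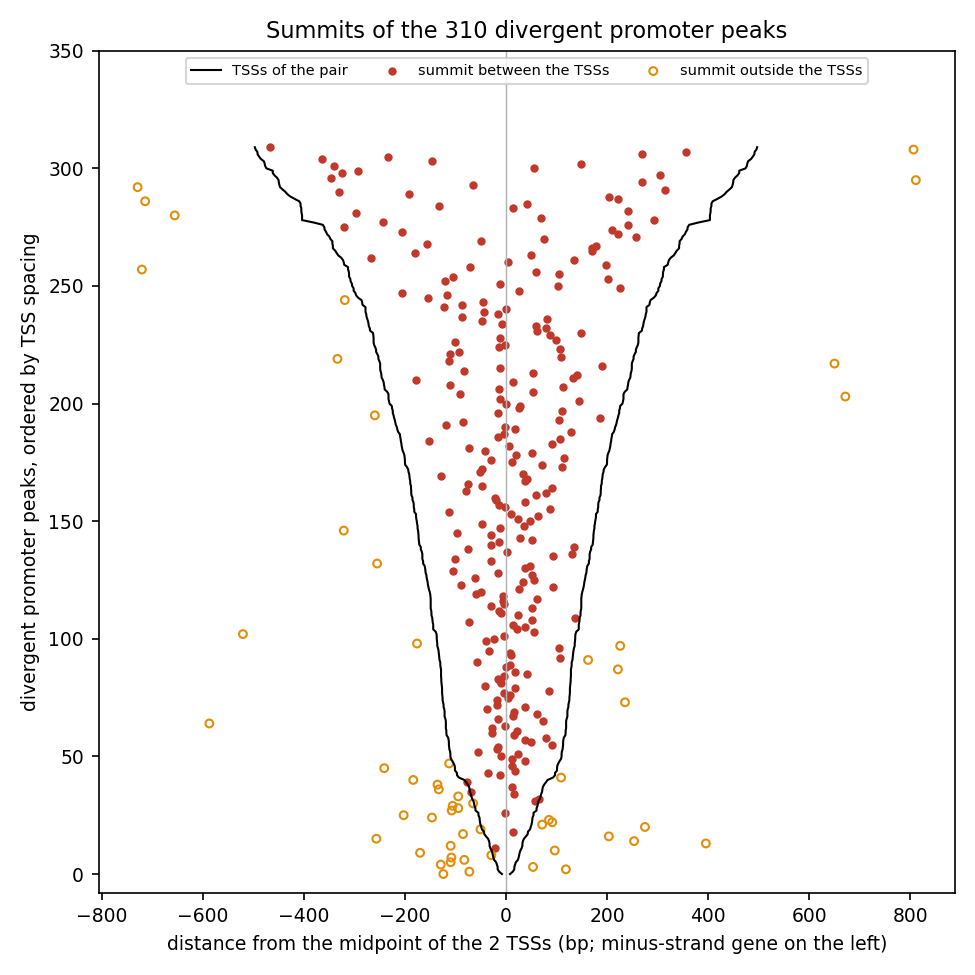
Distance of each of the 310 summits from the midpoint of its 2 TSSs (bp), with peaks stacked by TSS spacing and black lines at the TSSs. The 255 filled points lie between the lines and spread farther from the midpoint at wider spacings. Many of the 55 open points belong to the narrowest pairs.

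Along the interval, with all spacings pooled, summits were densest near the middle and sparse at both ends. Of the 255 summits between the TSSs, 51 (20%, 15.6 to 25.3) lay from 40% to 50% of the way from the minus-strand TSS, against 8.95% of the bases between TSSs that meet the rule. The first 10% held 5 summits (1.961%) against 11.3% of bases, and the last 10% held 6 (2.35%) against 11.2%. The median summit lay 55 bp from the midpoint (quartiles 18.5 and 111.25 bp).

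**Figure D2:**
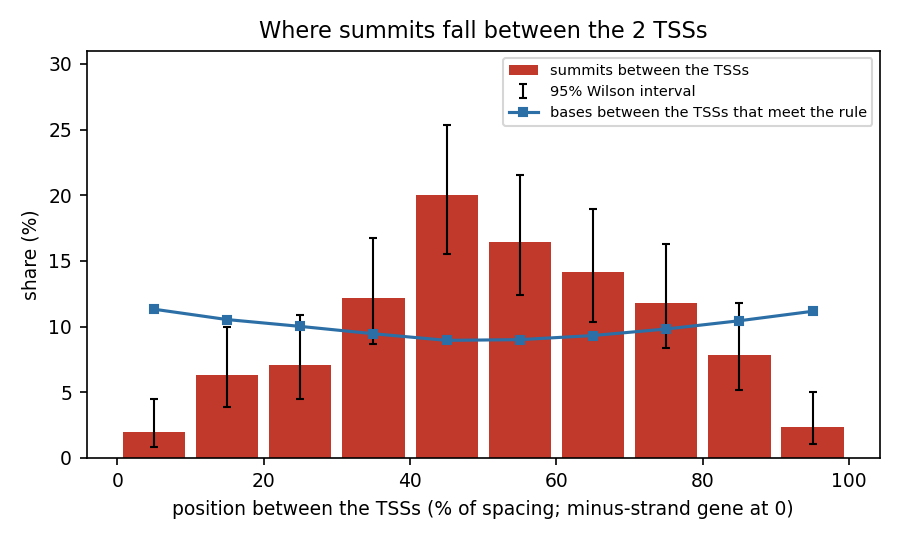
Share of the 255 summits between the TSSs in each 10% of the interval (bars, with 95% Wilson intervals), beside the share of bases that meet the rule (squares). The bars are highest from 40% to 50%, at 20%, and lowest in the first 10%, at 1.961%.

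Non-divergent promoter peaks sat farther upstream. Among divergent promoter peaks with a summit between the TSSs, the median summit was 127 bp upstream of the nearest TSS (quartiles 94 and 171.5 bp). Among the 779 non-divergent promoter peaks with a summit at or upstream of the TSS, it was 261 bp upstream (quartiles 180.5 and 365.5 bp). The rule itself shortens the distance in divergent pairs, since a summit between 2 TSSs can be no farther from the nearer TSS than the midpoint is.

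The position changed with the spacing. With TSSs 1 to 100 bp apart, 2 of 21 summits (9.52%, 2.65 to 28.9) were between them, and the other summits lay beyond a start site. Above that, and up to 250 bp, the count was 35 of 53 (66.0%). From there to 500 bp it was 134 of 144 (93.1%), and from 501 to 1000 bp it was 84 of 92 (91.3%). The narrowest pair was E(z), the histone H3 lysine 27 methyltransferase, with Cnep1r2, and its TSSs were 16 bp apart. Its summit lay 116 bp inside the E(z) side and ranked 610, 376 and 409 in replicates 1, 2 and 3. The next were CG8892 / CG34126 at 27 bp and Pex11ab / CG8320 at 33 bp, with summits 59 and 102 bp beyond a TSS. Of the 55 summits outside the TSSs, 36 lay in an annotated 5′ UTR and 19 in no annotated exon of a protein-coding gene. Whether each of those 19 lay within an intron was not checked.

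Of the 3 widest pairs, 2 had the summit between the TSSs. Gnpat / CG5112 had a spacing of 994 bp and its summit was between the TSSs, 30 bp from that of Gnpat, an acyltransferase of ether lipid synthesis. CG32767 / CG15465 (991 bp) had its summit 311 bp outside, on the CG15465 side. Smg5 / Ance (984 bp), which pairs a nonsense-mediated decay factor with a peptidase, had it 136 bp from the Ance TSS and between the start sites. At the edges of the rule, CG10383 / CG10338 and DCP2 / dbo were members with summits 468 and 439 bp from a TSS, and peaks at Hsp67Bc / Hsp22 and stwl / CG3919 fell just outside at 521 and 524 bp. The stwl / CG3919 pair was still a member pair through another peak, whose summit lay between its TSSs. By spacing, peaks at Eno / Rrp40 (1015 bp) and PMCA / Hcf (1021 bp) fell just outside.

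Peaks were found at 293 of the 2640 annotated divergent pairs with a spacing of up to 1000 bp, a share of 11.1% (9.96 to 12.4). For a split by spacing, each pair was placed by the smallest spacing among its TSSs. The share was 9.37% of 427 pairs at 1 to 100 bp, 9.05% of 597 above that and up to 250 bp, 13.5% of 948 from there to 500 bp and 10.6% of 668 at 501 to 1000 bp. A peak counted for its pair even where it lay at other start sites of that pair with a wider spacing. At 1 to 100 bp, 40 pairs had a peak, whereas 21 member peaks had that spacing at their own start sites. The Wilson intervals of these 4 shares overlapped.

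Peaks within 500 bp of a TSS were found at more genes of divergent pairs than of others. A summit was present for 659 of 5052 genes with a divergent partner (13.0%) and for 652 of 8893 without one (7.33%). Among genes with a single TSS, the counts were 330 of 3455 (9.55%) with a partner and 266 of 6791 (3.92%) without. A summit between 2 TSSs can count for both genes of a pair, so these genes are not independent, and the contribution of that was not tested. By position, 25.7% of promoter peaks (23.4 to 28.3) were divergent, and 22.8% of bases within 500 bp of a TSS meet the rule.

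The pair annotation itself limits some members. Both TSSs were the outer 5′ ends of their gene records in 236 of 310 peaks (76.1%), and the others used at least 1 alternative start site. The spans of the paired genes overlapped for 45 peaks (14.5%). By chromosome arm, divergent peaks were 83 of 252 promoter peaks on 3L (32.9%), 79 of 258 on 3R (30.6%), 69 of 235 on 2L (29.4%), 36 of 202 on 2R (17.8%) and 41 of 248 on the X (16.5%). The annotated pairs with a peak were 15.5% on 3L, 10.9% on 3R, 12.4% on 2L, 6.48% on 2R and 10.2% on the X, so the X was low among promoter peaks but not among pairs.

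The strength of a peak was taken as the signal score that the authors' peak caller gave, on a scale that is not stated, and was compared within 1 list. In the reproducible list, divergent promoter peaks had a median of 293.4 (quartiles 185.7 and 480.3), non-divergent promoter peaks 225.5 (150.8 and 425.7) and peaks away from promoters 181.9 (136.6 and 278.1). The quartile ranges overlap widely, and with 1 pooled value per peak there was no replicate error to test against. Of the 100 strongest reproducible peaks 30 were divergent promoter peaks, as were 189 (4.66%) of the 4056 peaks ranked 1001 to 5056. The median was 723.5 in the 21 peaks of pairs 1 to 100 bp apart and 253.1 in the 92 of pairs 501 to 1000 bp apart. Across the 310 peaks, spacing and signal had a Spearman rho of -0.19, a description over peaks that share the same 3 libraries.

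The strongest reproducible peak of the whole list was at Ugalt / eIF2Bbeta, with a pooled signal of 2606. Ugalt is a UDP-galactose transporter, and eIF2Bbeta is a subunit of the exchange factor that recharges initiation factor eIF2. Its signal scores were 976, 960.0 and 691 in replicates 1, 2 and 3, and it ranked 1, 1 and 2 there. The summit lay 39 bp from the Ugalt TSS, at 5.42% of a 719 bp interval.

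Other leading peaks also stood near the top of all 3 lists. PNPase / Gprk2, a mitochondrial polynucleotide phosphorylase and a G protein-coupled receptor kinase, ranked 9, 7 and 8, with its summit 81 bp inside the PNPase side. Tcs5 / CHMP2B, the second of which is a subunit of the ESCRT-III membrane-remodelling complex, ranked 12, 13 and 11. Chro / Ssl1, a chromodomain protein and a subunit of the general factor TFIIH, ranked 16, 12 and 12. All 3 pairs kept a rank within 5 places across the replicates, and the Chro / Ssl1 summit was outside its TSSs by 94 bp.

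Among the remaining strongest pairs, mRpL41 / CG8079 ranked 8, 18 and 14, Pex11ab / CG8320 ranked 34, 20 and 13, and CG5757 / CG5098 ranked 29, 28 and 15. Art3 / mRpS10, an arginine methyltransferase and a mitochondrial ribosomal protein, ranked 20, 26 and 30. tank / CG12194 ranked 48, 27 and 32, and its summit lay 147 bp outside the pair on the tank side. eIF4EHP, a cap-binding repressor of translation, and its partner CG18428 ranked 32, 30 and 48. Pdrg1 / Pal1 ranked 35, 43 and 35, mRpL23 / CG9004 39, 46 and 36, and CG10747 / Pyroxd1 52, 42 and 33. Of the 15 strongest members, 13 were listed by all 3 replicates. The other two, mRpS23 / CenG1A and CG3437 / CG3552, had no candidate in replicate 3.

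Summits close to the midpoint occurred among the strongest peaks. The 3 strongest members within 5% of the spacing of the midpoint were Art3 / mRpS10 (48.3% of the way from the minus-strand TSS), Atat / Shc (52.8%) and Lon / PIG-F (45.3%). Atat acetylates alpha-tubulin, Shc is a signalling adaptor, Lon is a mitochondrial protease and PIG-F acts in the synthesis of GPI anchors. Atat / Shc ranked 86, 60 and 29 and Lon / PIG-F ranked 75, 57 and 60 in replicates 1, 2 and 3. In all, 50 of the 255 summits between TSSs (19.6%) were that close.

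In 16 pairs there were at least 2 member peaks. Elp6 / Dic1, a subunit of the Elongator complex and a mitochondrial dicarboxylate carrier, had peaks at different pairs of start sites, spaced 350 and 622 bp apart. The first ranked 119, 65 and 256 and the second 1198, 809 and 978. Pax / Alp12, which pairs paxillin with an alkaline phosphatase, had the most, 3 peaks, of which 2 matched the same region in each replicate. Irbp18 / APP-BP1 had 2 peaks of that kind, and 20 members in all (6.45%) overlapped another reproducible peak, so such peaks are not independent calls. Whether they mark separate sites was not tested. Brf / sds22 and DCP2 / dbo had a summit between the TSSs and another outside.

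Of the replicates, the third listed many fewer divergent promoter peaks than the others. A top list was defined as a replicate's 5056 strongest candidates, and a peak was in it when they overlapped by at least 1 bp. In replicate 1 the top list held 287 of 310 divergent peaks (92.6%) and 89.4% of non-divergent promoter peaks. In replicate 2 it held 288 (92.9%) and 89.0%. In replicate 3 it held 169 (54.5%) and 70.0%.

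The peaks scored came from the reproducible list, which was itself made in part from these replicate lists. Support in each replicate, and the differences tested here, are thus partly set by how the peaks were chosen. Averaged over replicates, support was 80.0% ± 22.1 for divergent peaks and 82.8% ± 11.1 for non-divergent promoter peaks (SD, n = 3 replicates). The differences, divergent minus non-divergent, were 3.21, 3.87 and -15.5 percentage points in replicates 1, 2 and 3. Their mean of -2.81 ± 11.0 (SD, n = 3) gave p = 1 in a two-sided exact sign-flip permutation test, and 3 replicates cannot give a p below 0.25. The sign of the mean rested on replicate 3: without it the mean was 3.54. All 3 top lists held 157 divergent peaks (50.6%, 45.1 to 56.2), 60.7% of non-divergent promoter peaks and 56.6% of all reproducible peaks. Replicates 1 and 2, but not 3, held a further 112 divergent peaks (36.1%) in their top lists, and 21.03% of non-divergent promoter peaks.

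In replicate 3 most of the missing divergent peaks had no candidate region at all. The share without any of its 30000 candidates was 132 of 310 (42.6%, 37.2 to 48.1) for divergent peaks, 199 of 894 (22.3%, 19.7 to 25.1) for non-divergent promoter peaks, 12.9% for peaks away from promoters and 16.4% for all reproducible peaks. Replicate 1 lacked 3 divergent peaks (0.968%). Replicate 2 lacked 0 of 310, which allows a share of up to 0.968%. For a count of 0, here and below, the share allowed is 3 divided by the number of cases and not a Wilson limit, which was 1.22% here. The nearest replicate 3 candidate was a median of 7036 bp away from the 132 peaks (lowest 282 bp). As 1 library decides this difference, it has no replicate check.

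**Figure D3:**
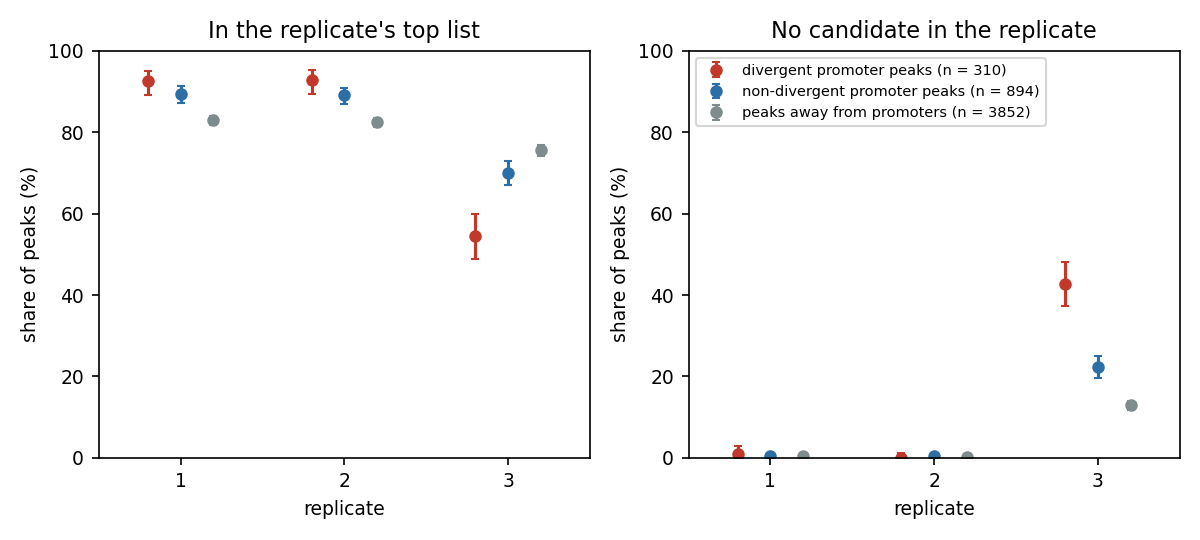
Share of divergent promoter, non-divergent promoter and other reproducible peaks (%) in each replicate's top list (left) and with no candidate in it (right), with 95% Wilson intervals. In replicate 3 the divergent peaks are lowest on the left, at 54.5%, and highest on the right, at 42.6%.

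The strongest pairs without a replicate 3 candidate were well placed in the other lists. mRpS23 / CenG1A, a mitochondrial ribosomal protein and an Arf GTPase-activating protein, ranked 25 in replicate 1 and 33 in replicate 2. CG3437 / CG3552 ranked 45 and 29, and fws / Lamtor3, which encodes a Golgi tethering subunit and a subunit of the lysosomal Ragulator complex, ranked 66 and 32. Mnat9 / CG1792 ranked 95 and 74, and CG13390 / CG17294 ranked 107 and 98. Sequence from the first 3 is printed above, whole intervals for CG3437 / CG3552 and fws / Lamtor3 and a stretch at the summit for mRpS23 / CenG1A.

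Divergent peaks were missed by replicate 3 more often than non-divergent promoter peaks in each band of pooled rank. The share without a candidate was 16.7% of 48 divergent and 9.30% of 86 non-divergent promoter peaks at pooled ranks 1 to 250, and 47.9% of 73 and 18.4% of 190 at the ranks from there to 1000. It was 42.0% of 100 and 22.2% of 248 at ranks 1001 to 2500, and 52.8% of 89 and 27.3% of 370 at ranks 2501 to 5056. On each of 5 arms divergent peaks were missed more often, from 38.6% against 17.2% on 3L to 58.5% against 24.2% on the X. With summits at most 100 bp upstream of the TSS the shares were 42.7% of 75 and 26.2% of 42. Above that and up to 200 bp they were 43.8% of 137 and 25.1% of 207, and from there to 300 bp 51.4% of 35 and 18.5% of 216. At 301 to 500 bp upstream they were 0 of 8, which allows up to 37.5%, and 20.4% of 314. Summits between the TSSs were missed in 43.1% of cases and summits outside them in 40.0%.

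Where replicate 3 listed a divergent peak, its order was like that of the others. Across the peaks that both listed, signal had a Spearman rho of 0.91 between replicates 1 and 2 (n = 307), 0.93 between 1 and 3 (n = 175) and 0.92 between 2 and 3 (n = 178). These are descriptions over peaks chosen in part from these lists. The pooled signal had a median of 255.8 in the 132 peaks without a replicate 3 candidate and 320.5 in the 178 it listed.

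**Figure D4:**
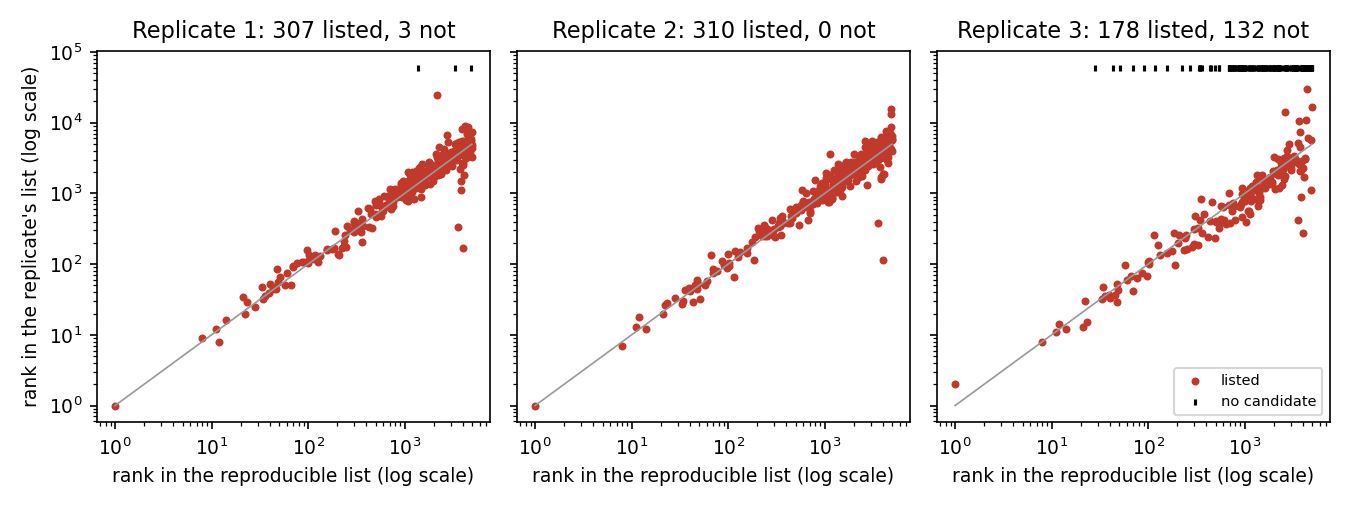
Rank of the 310 divergent promoter peaks in each replicate's list against rank in the reproducible list (log scales, 1 = strongest), with equal ranks as a grey line and peaks without a candidate as black ticks at the top. Replicates 1 and 2 list 307 and 310 peaks near the line, and replicate 3 lists 178.

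The rule was also applied to each replicate's own top list, with that list's summits. It gave 495 divergent among 1475 promoter summits in replicate 1 (33.6%, 31.2 to 36.0), 525 among 1514 in replicate 2 (34.7%, 32.3 to 37.1) and 187 among 885 in replicate 3 (21.1%, 18.6 to 23.9). The summit was between the TSSs in 83.0%, 83.2% and 79.1% of them. Replicates 1 and 2 shared 378 gene pairs, which were 81.3% of the 465 pairs of replicate 1 and 78.3% of the 483 of replicate 2. Replicate 3 had 178 pairs, of which 157 (88.2%) were also in replicate 1 and 165 (92.7%) in replicate 2.

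Divergent promoter summits were AT-rich. In the bases from 50 bp before to 50 bp after the summit, GC content was 29.1% ± 7.35 in divergent peaks (SD, n = 310 peaks) and 31.1% ± 7.97 in non-divergent promoter peaks (SD, n = 894). It was 40.7% ± 6.21 in windows 200 bp from the divergent summits, and the summit window was the lower in 279 of 310 (90%). At the TSSs of the member pairs it was 43.7% ± 5.94. The midpoints of the pairs with a peak had 30.2% ± 9.69 (SD, n = 310 peaks). The midpoints of 2320 annotated divergent pairs with no reproducible summit within 500 bp had 33.7% ± 10.5 (SD). These midpoints were not matched for spacing. Of all 2640 annotated pairs, 427 were 1 to 100 bp apart at their closest TSSs, against 21 of 310 member peaks at their own. At such pairs a midpoint window can hold both TSSs. Peaks away from promoters had 30.97% ± 6.87 at their summits (SD, n = 3852), so the divergent summits were lower by less than 1 SD than either other class of peak.

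**Figure D5:**
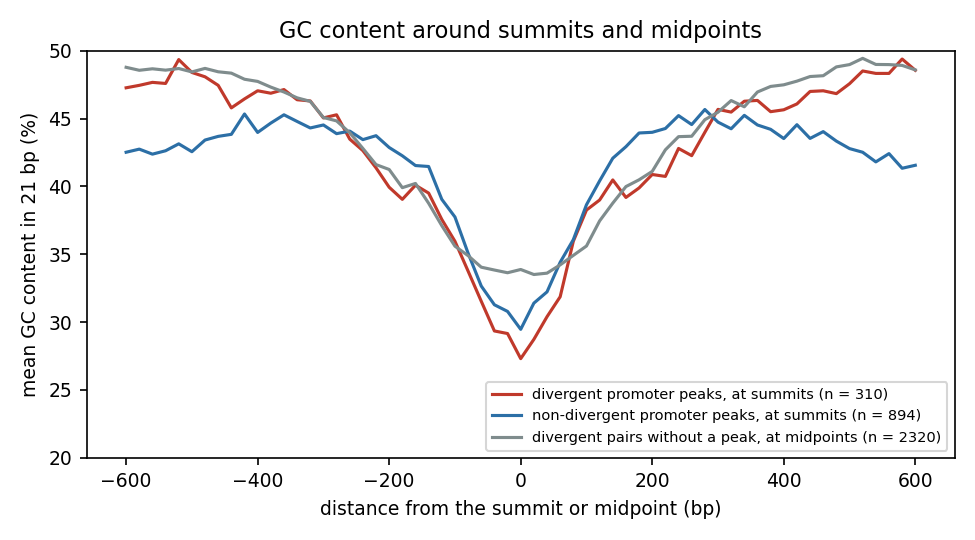
Mean GC content (%) in 21 bp windows by distance (bp) from the summits of divergent and non-divergent promoter peaks and from the midpoints of divergent pairs without a peak. All 3 curves dip at the centre, to 27.3%, 29.5% and 33.9%.

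Known elements of housekeeping promoters were rare at these summits. The DRE, TATCGATA, was in 4 of 310 divergent summit windows of that width (1.29%, 0.503 to 3.27), in 0.336% of non-divergent promoter windows, in 0.218% of all reproducible summit windows and in 5.30% (4.46 to 6.29) of the midpoint windows of pairs without a peak. GGTCACAC, from the element named Motif 1, was in 0 of 310 windows, which allows up to 0.968%, and in 0.112%, 0.297% and 3.15% of the same other windows. CGATA, which the DRE also contains, was in 14.8%, against 10.7%, 10.6% and 24.9%. CAGCTG, an E-box, was in 2.58%, against 2.24%, 1.94% and 6.81%. In windows 400 bp from the divergent summits the DRE was in 1.29%, GGTCACAC in 0.645%, CGATA in 14.8% and CAGCTG in 6.61%. The DRE and CGATA were thus as rare there as at the summits. At the midpoints of pairs with a peak the DRE was in 1.29%, CGATA in 14.2% and CAGCTG in 3.55%, and GGTCACAC was in 0 of 310. Motifs were searched on both strands, and the windows differ in GC content as given above. The midpoint windows were also not matched for spacing, and in narrow pairs they can hold the TSSs themselves.

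Between the start sites as a whole, the DRE was in a somewhat smaller share of the intervals with a peak in each of 3 spacing classes, with Wilson intervals that overlapped. With TSSs over 250 and up to 500 bp apart, TATCGATA was found in 25 of 131 intervals with a summit between the TSSs (19.1%, 13.3 to 26.7) and in 165 of 814 intervals of pairs without a peak (20.3%, 17.6 to 23.2). With 501 to 1000 bp the shares were 17.7% of 79 and 18.7% of 593, and with over 100 and up to 250 bp they were 8.57% of 35 and 14.4% of 528. GGTCACAC was in 0 of 35 intervals with a summit and 47 of 528 of those of pairs without a peak (8.90%) at over 100 and up to 250 bp, in 6.11% and 10.4% at over 250 and up to 500 bp, and in 8.86% and 8.94% at 501 to 1000 bp. With 35 intervals, 0 allows a share of up to 8.57%. Mean GC content of the intervals was 33.1% ± 4.73 with a summit and 37.9% ± 8.17 without a peak in the class up to 250 bp (SD, n = 35 and 528 intervals). It was 33.5% ± 4.49 and 34.3% ± 5.51 in the class up to 500 bp (n = 131 and 814), and 36.0% ± 4.98 and 35.8% ± 5.50 in the widest (n = 79 and 593).

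AT-rich hexamers were in larger shares of the divergent summit windows. These windows also had the lowest GC content of those compared, and the contribution of base composition was not tested. TATAAA, the core of the TATA box, was in 30.97% of divergent summit windows (26.1 to 36.3), 23.8% of non-divergent promoter windows (21.2 to 26.7), 25.2% of all reproducible windows and 22.2% of midpoint windows without a peak. The first 2 intervals overlapped slightly. How far each TATAAA lay from a TSS was not counted, so these are not counts of TATA boxes. TTTAAA was in 30% of divergent summit windows (25.2 to 35.3), 21.9% of non-divergent promoter windows (19.3 to 24.8), 23.5% of all reproducible windows and 23.3% of midpoint windows. In windows 400 bp from the divergent summits TATAAA was in 6.77% and TTTAAA in 6.61%. GAGAGA, the repeat bound by GAGA factor, was in 2 of 310 divergent windows (0.645%) and in 3.58% of non-divergent promoter windows.

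Genes of many housekeeping functions were in pairs with a peak. For most groups the share was not distinct from that of all genes in divergent pairs. Groups were counted by gene symbol, so a count covers the genes whose symbols carry the group's usual stem and leaves out members with other names. Among all 5052 genes of annotated divergent pairs, 582 were in a pair with a peak, a share of 11.5%. Of 58 mitochondrial ribosomal protein genes in such pairs, 12 had a peak (20.7%, 12.2 to 32.8), with mRpL41, mRpS10 and mRpS23 the strongest. Of 56 cytosolic ribosomal protein genes, 6 had one (10.7%), led by RpS20 with CG17271, RpS28b with l(1)G0320 and RpL8 with msn. The interval of the mitochondrial share began just above the 11.5% of all such genes, and the cytosolic share was close to it. Of the 14 lists counted, only this one and the ecdysone list below had an interval wholly above 11.5%. The intervals of the others all held it, and no correction was made for the number of lists.

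In the expression machinery, 9 of 56 genes with symbols of RNA polymerase subunits, general transcription factors or Mediator (such as Polr, TfII, Taf and MED) were in a pair with a peak (16.1%). Members outside that count, seen afterwards, were Ssl1 of TFIIH, Brf and Bdp1 of the polymerase III factor TFIIIB, and the Mediator subunit skd. CG10584 / Polr3E, with an RNA polymerase III subunit, had signal scores of 326 and 250.3 in replicates 1 and 2 and was not listed in replicate 3. CG12321 / MED17 ranked 912, 652 and 418, and CG11247 / Polr2H ranked 941, 1554 and 415. By symbol, aminoacyl-tRNA synthetases had 4 of 22 (18.2%), translation factors 4 of 28 (14.3%) and splicing proteins 4 of 28 (14.3%). These counts leave out the members GluProRS, also a synthetase, and SNRPG and SC35, an snRNP protein and a splicing factor. Hem / IleRS, Nmda1 / AspRS, CG17816 / ArgRS-m, eIF5B / CG46463, U2af50 / PIG-Q, Msh6 / Prp31 and l(1)G0469 / Prp16 were among them, with pooled signals of 415, 351, 121, 302, 419.9, 284 and 166.

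Among respiratory chain and ATP synthase genes counted by symbol (such as ND, COX, UQCR and ATPsyn), 3 of 44 were in a pair with a peak (6.82%), and these 3 encode subunits of complex I: ND-ASHI with Fum1, ND-MWFE with TppII, and ND-75 with CG1632. These ranked 339, 515 and 916 in replicate 1 and 455, 568 and 1626 in replicate 2, and none of the 3 had a candidate in replicate 3. CG42260 / blw, with the ATP synthase alpha subunit, is outside that count and ranked 2210, 2217 and 1369. Vesicle traffic had 5 of 61 (8.20%), with brm / Arl1 ranked 50, 133 and 68, Fur1 / Vps33B ranked 161 and 170 in replicates 1 and 2 only, and Rab3GAP1 / CG14352 ranked 2380 and 1745 in those replicates only. The proteasome had 1 of 26, Rpn5 with Hat1, and the replication and repair symbols searched (such as Mcm, Orc, RfC, Rad and mus) 1 of 25, Rad60 with EloA. That search covers a small part of the group. Member genes outside it included the checkpoint kinases mei-41 and tefu, the mismatch repair gene Msh6, Xpc, SMC6, RecQ5, Rtel1, Rrp1, RnrS and dup. Genes outside the search that had no peak were not counted, so neither its share nor these names describe the group. Mitochondrial import had 0 of 5, which allows up to 60%.

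Small lists with higher shares rest on few genes. Autophagy had 3 of 16 (18.8%, 6.59 to 43.0): Atg17 with Xe7, Atg2 with CG12093 and Atg18a with ERR, all listed by all 3 replicates. Cyclins and cyclin-dependent kinases had 2 of 8, Cdk12 with SAK and Cdk1 with mRpS7, neither with a candidate in replicate 3. In the response to ecdysone, the steroid whose pulses time the prepupal stage, 3 of 6 genes in divergent pairs had a peak (50%, 18.8 to 81.2). These were usp, the partner of the ecdysone receptor, with CG4313, the nuclear receptor gene Hr3 with Hdc, and ImpE3 with CG10903. Their pooled signals of 154, 125 and 112 were below the members' lower quartile of 185.7, and of the 3 only Hr3 / Hdc had a candidate in replicate 3, at rank 10831. All these lists were described with no test, and the members named as outside a count were picked after their peaks were seen. Genes known only by a CG number made up 32.1% of the 582 genes of member pairs and 43.7% of all protein-coding genes. That share was not counted among the genes of all annotated divergent pairs, so pairs with and without a peak cannot be compared by it.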

How the data were processed

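Peak lists in dm6 were used: 3 replicate lists, each derived from that replicate's alignment and a further file, and a reproducible list, made from these and a pooled list at a threshold of irreproducible discovery rate, per the deposited description files. No source used here names the aligner, the peak caller, the threshold or any tool version. The signal score of each region was deposited by the authors, has no stated scale and was used within 1 list only. Read counts and hence depth are unknown, so intervals (95% Wilson) cover counting error over peaks only. The share that a count of 0 allows was set at 3 divided by the number of cases. The column of summit offsets gave summits, written 1-based. Gene starts were every protein-coding transcript start of Ensembl release 115 (BDGP6 annotation 54), 19607 starts of 13945 genes on the 6 arms with peaks; sequences came from the RefSeq Release 6 assembly. The dm3 lists were not used. The membership rule, overlaps and the exact test were tested on simulated data.

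Replicates are biological per the labels and form 1 group; the replicate was the unit of the only test, a two-sided exact sign-flip permutation test. The text names the genes of the 15 strongest members, the 5 strongest without a candidate in replicate 3, the 3 narrowest and 3 widest pairs, the 5 strongest pairs with several peaks, the 3 strongest near the midpoint, up to 3 per gene list and those at each threshold. The members, gene lists and motifs were chosen with earlier results of these data known. The spans-overlap alternative, the bands of rank, distance and arm for replicate 3 and the motif counts between start sites were chosen after seeing the data. Alternatives covered spacing, distance, start sites, peak list, summits, overlap, list length, window and each replicate. The tools were matplotlib 3.10.9, scipy 1.17.1, pandas 2.3.3, numpy 2.4.6 and Python 3.11.15.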

Additional observations from a re-analysis of the deposited data

How the results depend on the processing

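Each of 9 results was recomputed under the alternatives that apply to it, which gave 54 values: 42 stayed close to the reported value, 11 moved and 1 reversed. With a spacing of at most 250 bp, 74 peaks at 72 pairs remained under the rule, 50% of their summits were between the TSSs, the median signal of divergent minus non-divergent promoter peaks was 112.7 (reported 67.98), and 7.03% of annotated pairs had a peak. With 1 TSS per gene, 74.7% of summits were between the TSSs. Restricting the list to peaks in all 3 top lists left 157 peaks and 149 pairs. The share of divergent peaks in all top lists was 43.9% when an overlap of at least 50% of the peak was asked for and 56.5% with all 30000 candidates. Leaving out each replicate in turn, that share ranged from 50.97% to 86.8%, and the difference in top-list support from -6.15 to 3.54 percentage points; the highest value of both, and the change of sign, came without replicate 3. Dropping pairs whose gene spans overlap, an alternative chosen after seeing the data, left the 8 results it was run on close to their reported values. There was no second group to pair; the difference in support was taken within each replicate. A stricter peak threshold was not run, since the lists carry no value for it that varies. Unknown depth and 3 replicates limit all shares by replicate.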
